A study of Homo sapiens with 12 samples.

Results

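The NF-kB pathway and a set of its inflammatory targets were followed in tumor-associated macrophages (TAMs) made from THP-1 cells, as 41 named genes out of the 58735 genes in the deposited count table. The genes were taken by name from a list of NF-kB subunits, inhibitors, signaling proteins of the TNF and innate receptor pathways, and target genes other than chemokines and the IL-1 family. They comprised 5 subunits, 5 IkB proteins, 4 feedback inhibitors, 10 signal transducers, 4 ligands of the TNF family, 5 survival or stress targets and 8 inflammatory effector targets. Of the 41, 40 had enough reads to be tested among the 16046 genes that passed a filter on low counts. The exception was TNIP3, a partner of the ubiquitin-editing enzyme A20, with at most 5 counts in any library.

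RNA was sequenced from THP-1 cells, an acute monocytic leukemia line, which had been differentiated with the phorbol ester PMA and kept in Transwell coculture with AsPC-1 pancreatic cancer cells. Control TAMs (labelled NC) faced AsPC-1 cells carrying an empty vector, OE-MMP28 TAMs faced AsPC-1 cells that overexpressed the matrix metalloproteinase MMP28, and the other two groups were OE-MMP28 cocultures to which a neutralizing antibody against IL-8 or against VEGFA had been added. Each group held 3 libraries, and whether these were separate cultures is not stated, so that p-values measure the spread between these libraries only. All 4 groups shared PMA, and no group was named for a control antibody. The overexpression was in the cancer cells, which were not sequenced, and MMP28 had 0 counts in all 12 TAM libraries, so the reads do not check that label.

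NF-kB is a family of dimeric transcription factors held in the cytoplasm by IkB proteins. In the canonical pathway, signals from TNF receptors, Toll-like receptors or protein kinase C (which PMA activates) lead the IKK kinases to mark IkB for degradation, and RELA-NFKB1 dimers enter the nucleus. In the noncanonical pathway, the NFKB2 precursor p100 is processed to p52, which acts with RELB. Several targets, among them NFKBIA, TNFAIP3 and BIRC3, encode proteins that restrain or tune the pathway, so that their transcripts are often read as a record of its activity in macrophages.

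NF-kB dimers recognize a decameric DNA element, the kappaB consensus, and the promoters of 4 members whose transcripts differed from control with an antibody are shown because they hold a match to it at their first listed transcription start. Each line gives 300 bases, from 250 before the start to 50 after it, on the strand of the gene, from RefSeq on GRCh38.p14, with the bases that match the consensus on either strand in capitals.
NFKBIA, chr14:35404700-35404999, minus strand: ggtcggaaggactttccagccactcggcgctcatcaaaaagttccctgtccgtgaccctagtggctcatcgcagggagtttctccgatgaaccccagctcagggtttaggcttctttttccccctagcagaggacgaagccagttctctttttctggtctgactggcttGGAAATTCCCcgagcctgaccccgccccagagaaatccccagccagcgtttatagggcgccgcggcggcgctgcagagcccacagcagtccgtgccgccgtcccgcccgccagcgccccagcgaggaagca
BIRC3, chr11:102317234-102317533, plus strand: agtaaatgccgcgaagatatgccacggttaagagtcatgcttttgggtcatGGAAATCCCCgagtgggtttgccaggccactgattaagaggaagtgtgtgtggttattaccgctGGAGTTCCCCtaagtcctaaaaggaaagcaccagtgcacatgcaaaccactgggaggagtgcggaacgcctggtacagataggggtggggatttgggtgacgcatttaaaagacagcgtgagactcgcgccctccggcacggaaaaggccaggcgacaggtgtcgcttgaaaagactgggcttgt
MAP3K8, chr10:30433771-30434070, plus strand: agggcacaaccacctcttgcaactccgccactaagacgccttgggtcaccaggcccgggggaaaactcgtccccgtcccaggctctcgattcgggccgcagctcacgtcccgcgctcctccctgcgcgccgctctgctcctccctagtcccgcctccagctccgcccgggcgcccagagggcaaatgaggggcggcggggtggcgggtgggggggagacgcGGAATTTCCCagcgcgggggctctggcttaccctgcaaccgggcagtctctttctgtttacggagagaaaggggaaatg
NFKBIZ, chr3:101827740-101828039, plus strand: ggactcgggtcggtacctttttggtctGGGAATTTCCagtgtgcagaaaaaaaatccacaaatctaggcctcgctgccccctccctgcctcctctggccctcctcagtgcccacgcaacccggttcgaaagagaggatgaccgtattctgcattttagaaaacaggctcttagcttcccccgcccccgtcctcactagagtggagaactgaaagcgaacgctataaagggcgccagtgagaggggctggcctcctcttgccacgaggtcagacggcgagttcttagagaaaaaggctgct
The match in NFKBIA lay 81 bases before the start, that in MAP3K8 29 bases before it, that in NFKBIZ 223 bases before it, and BIRC3 held a pair, 199 and 135 bases before its start. Promoter windows were available for 36 of the 41 genes, and 12 of them (33.3%) held a match at the first listed start, against 2958 of 27305 genes (10.8%) with a window of the same length. Of the 18 members called against control with either antibody, 14 had a window and 4 held a match at the first listed start, and of the other members 8 of 22 did. Counting any listed start, 7 of the 14 and 10 of the 22 held a match. By that count 17 of the 36 members (47.2%) did, against 3619 of 27305 genes (13.3%). NFKB2, NFKBIB and LTA held matches only at a later listed start. A match is a description of the sequence and does not show binding.

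Library totals lay between 15852346 and 18701195 counts, so that 3 counts corresponded to 0.160 to 0.189 CPM (counts scaled to a common library total). The libraries were of the labelled lineage by CD14 (11260 to 28850 counts), ITGAM (6266 to 10445) and SPI1 (2937 to 7500), and LYZ (76 to 182) and AIF1 (148 to 280) were low among the 10 macrophage markers, whereas CD68 had at most 5 counts, with 85.8% of its exonic bases shared with other genes. EPCAM was at 0 in all 12 libraries. The summed level of 10 epithelial markers ran from 2.72 to 3.24 CPM in OE-MMP28, 3.40 to 4.63 under anti-IL-8, 4.30 to 4.92 under anti-VEGFA and 4.97 to 6.01 in control. MUC1 led these markers at 28 to 65 counts, followed by KRT7 at 4 to 22. The sum of KRT8, KRT18 and KRT19 overlapped between control (0.121 to 0.299 CPM) and OE-MMP28 (0.113 to 0.289). It was 0.481, 0.542 and 0.126 in the anti-IL-8 libraries and 0.374 to 0.717 under anti-VEGFA. Mitochondrial transcripts took 6.92% to 17.8% of counts, the highest in anti-VEGFA replicate 2. All 20 interferon-stimulated genes of a list, chosen with earlier results of these data known, fell in OE-MMP28 relative to control (median log2 fold change -3.25). They also fell against control with anti-IL-8 (-3.50) and anti-VEGFA (-2.89). Of all tested genes, 2.64%, 10.9% and 5.37% were called lower in these comparisons, in the same order. The part of these differences in the results on the members was not tested. The median SD of the tested members between libraries of a group, on the log2 scale, was 0.102 in control, 0.112 under anti-IL-8, 0.200 under anti-VEGFA and 0.235 in OE-MMP28. In bulk RNA, fewer cells with a transcript and less transcript per cell cannot be told apart.

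Transcript levels of the members, compared per length as the FPKM values computed by the authors, ran from 623 FPKM down to 0.042. IER3, an immediate early gene induced by stress, was highest at 623 FPKM (381 to 858), as the mean and range over 12 libraries. It was followed by PLAUR, the urokinase receptor, at 268 FPKM (198 to 353), and by BCL2A1, an antiapoptotic BCL2 relative, at 198 FPKM (142 to 266). The canonical inhibitor NFKBIA (114 FPKM, 82.0 to 149.7), the mitochondrial superoxide dismutase SOD2 (95.6 FPKM, 82.3 to 125) and the deubiquitinase A20, TNFAIP3 (74.3 FPKM, 66.0 to 86.7), were also abundant. Among subunits, NFKB2 led at 31.8 FPKM (19.4 to 42.8), followed by NFKB1 (17.5 FPKM, 14.9 to 20.2), RELB (16.6 FPKM, 11.8 to 22.6) and RELA (13.5 FPKM, 10.5 to 16.4), whose ranges overlapped, and REL was far below them at 1.02 FPKM (0.437 to 1.69). Of the ligands, TNF stood at 50.1 FPKM (34.8 to 80.1) and TNFSF15 at 28.8 FPKM (23.0 to 41.5), whereas LTB (0.410 FPKM, 0.151 to 0.709) and LTA (0.367 FPKM, 0 to 0.943) were scarce.

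**Figure D1:**
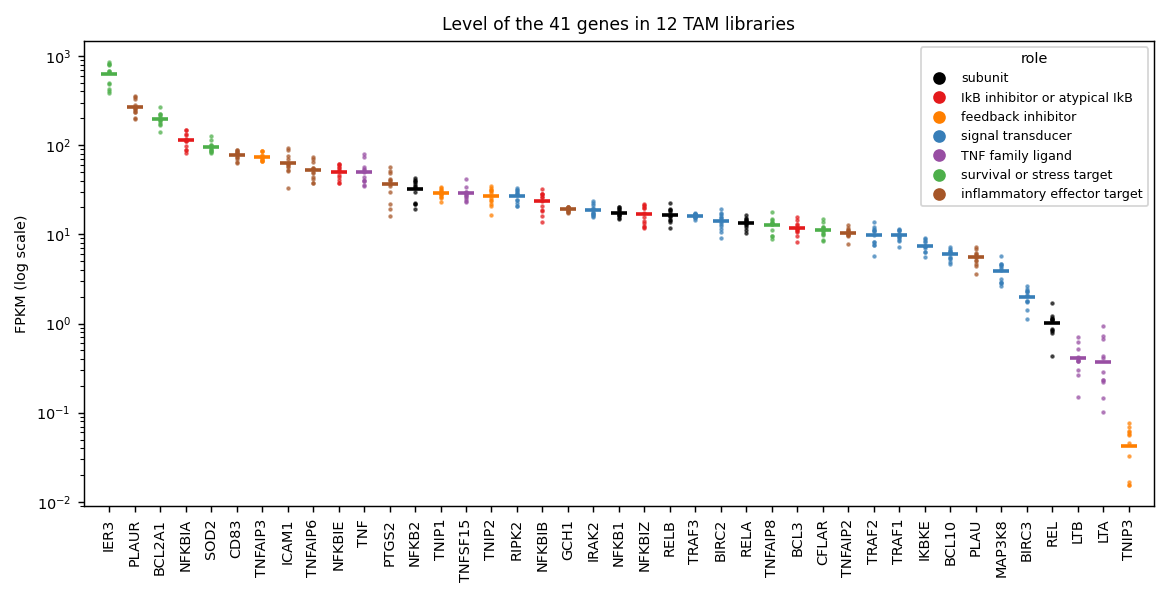
FPKM (log scale) of the 41 genes, ordered by mean and colored by role. Points are the 12 libraries (values of 0 are left out) and bars the means over the 12. IER3 heads the order at 623 FPKM, REL is the lowest of the 5 subunits, and LTB, LTA and TNIP3 lie below 1 FPKM.

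The first comparison asked how the members stood in TAMs exposed to MMP28-overexpressing cells. In OE-MMP28 against control, 0 of the 40 passed an adjusted p of 0.05 in edgeR's quasi-likelihood test, in which 0.523% of all tested genes were called higher and 2.64% lower. Here and for the single genes, called means past that threshold in that fit, and calls under another setting are given as such. The smallest adjusted p of a member was 0.124, for NFKB2. At an unadjusted p of 0.05, 6 members were higher (15.0%, against 5.93% of all genes) and 2 were lower (5.0%, against 8.61%). The 6 were NFKB2, TNFSF15, PLAUR, NFKBIA, CD83 and TNFAIP3, and the 2 were PLAU and MAP3K8. The median log2 fold change of the 40 was 0.0932, beside 0.0227 for all genes. DESeq2 and limma's voom also called 0 members in this comparison, and edgeR called 2, both higher, when OE-MMP28 replicate 2 was left out (3.12% of all genes) and 1 when replicate 3 was (2.6%).

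With the antibodies, the members were first compared with OE-MMP28 alone. In anti-IL-8 against OE-MMP28, 0 members passed the adjusted threshold, as did 0% of all genes in either direction, and the smallest adjusted p of any gene, 0.0627, was reached by members too. DESeq2 called 13 members there (4 higher, 9 lower) and voom 0, and edgeR called 17 once OE-MMP28 replicate 3 was left out. Dropping anti-VEGFA replicate 2, a library of neither group that shares in the estimate of the spread, gave 9. Of all genes, DESeq2 called 23% of those it gave an adjusted p, and edgeR called 25% and 7.08% in these fits. The 6 members with the smallest p whose libraries did not overlap were PTGS2 (-0.96), TNFAIP6 (-0.76), BIRC2 (-0.63), RELB (0.51), BIRC3 (-0.66) and RIPK2 (-0.42), as log2 fold changes with adjusted p of 0.0627 to 0.0634. At the unadjusted threshold, 7 members were higher (17.5%, against 13.4% of all genes) and 11 were lower (27.5%, against 15.9%), and the median of the 40 was -0.00282 beside -0.0155 for all genes. In anti-VEGFA against OE-MMP28, 0 members passed the adjusted threshold (0.312% of all genes were called higher and 0.0312% lower), while 10 were higher at the unadjusted one (25%, against 10.4%) and 3 lower (7.5%, against 8.44%), with a median of 0.116 beside -0.00147. DESeq2 called 2 members and voom 0, while edgeR called 7 once OE-MMP28 replicate 3 was left out and 1 after dropping anti-VEGFA replicate 2, with 2.96%, 8.48% and 0.51% of all genes. The 6 members with the smallest p and no overlap were IER3 (0.67), TRAF2 (0.59), LTA (1.66), CFLAR (0.41), TNFSF15 (-0.38) and RELB (0.34), with adjusted p of 0.0747 to 0.193. LTA, which is also among the 10, passed the filter on low counts only through the anti-VEGFA libraries. Its place here is therefore no support for an effect.

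Against control, both antibody groups held called members. With anti-IL-8, 8 of 40 rose (20%, against 9.77% of all genes) and 7 fell (17.5%, against 10.9%). With anti-VEGFA, 7 rose (17.5%, against 5.60%) and 0 fell (5.37% of all genes did), with 3 members lower at the unadjusted threshold. The 7 include LTA, which passed the filter on low counts only through the anti-VEGFA libraries. These comparisons share the control libraries, and each sets MMP28 overexpression and an antibody together against neither, so the 2 cannot be told apart in them. With a library left out, the anti-IL-8 calls of PTGS2, NFKB2, BIRC2, NFKBIZ, IER3 and PLAUR and the anti-VEGFA calls of IER3, NFKBIA, NFKB2 and LTA always held, and each of the other calls was lost without at least 1 library (7 calls were left with anti-IL-8 without its replicate 1, 8 without its replicate 3 or without control replicate 2 or 3, and 4 with anti-VEGFA without any 1 control library). Of all genes, 7.94% to 8.48% were called in these anti-IL-8 fits and 4.02% to 5.8% in these anti-VEGFA fits. Directly between the antibodies, 1 member was higher with anti-VEGFA, PTGS2 (2.5%, against 0.193% of all genes), and 0 were lower (0.00623% of all genes, with 1 member, PLAUR, lower at the unadjusted threshold).

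**Figure D2:**
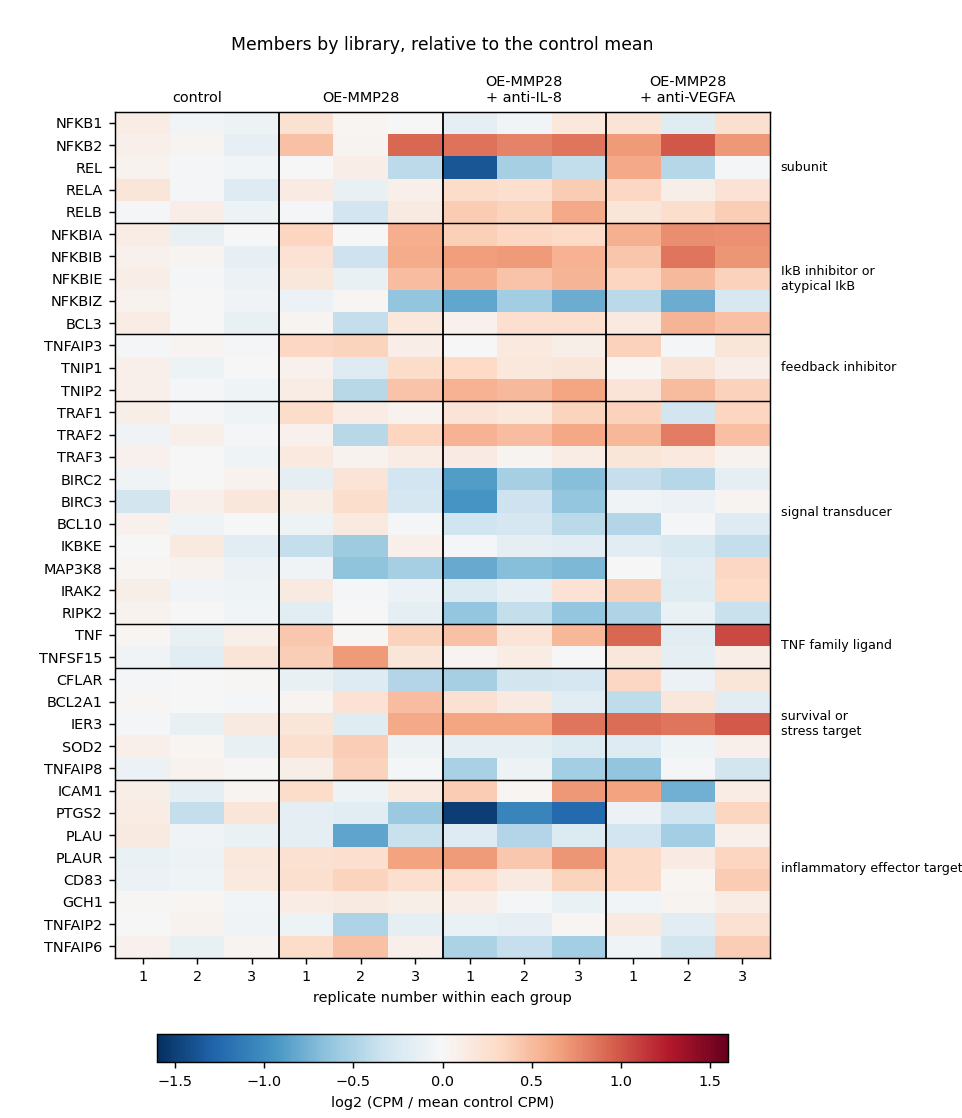
Color gives the log2 ratio of TMM-scaled CPM to the control mean for 38 members in 12 libraries, by role, with LTA and LTB left out for their low counts and TNIP3 as untested. PTGS2 and MAP3K8 are lower (blue) in all anti-IL-8 libraries than in every other library, and NFKB2 is higher (red) than the control mean in both antibody groups. OE-MMP28 replicates 2 and 3 differ in NFKB2.

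The base composition of the transcripts moved with the antibody comparisons. In anti-IL-8 against OE-MMP28, the log2 fold changes of the 40 members followed the GC content of their longest transcript with a Spearman rho of 0.929, and over 16040 genes with one of 0.709. These points are genes that share the same 6 libraries. All 16 members above 55% GC had positive values (median 0.318) and all 13 below 45% had negative ones (median -0.424). In anti-VEGFA against OE-MMP28 the rho over members was 0.63, in anti-IL-8 against control 0.759, and in anti-VEGFA against control 0.673, whereas in OE-MMP28 against control it was 0.0402. In anti-VEGFA against anti-IL-8, where PTGS2 (36.9% GC) was higher, it was -0.522. With anti-IL-8 against control, the called members that rose, such as NFKB2 (62.4%) and NFKBIB (62.3%), had a median GC content of 61.6%, and those that fell, such as BIRC3 (34.8%) and PTGS2 (36.9%), one of 38.0%. Single libraries differed in the same property, since the rho over all genes between GC content and the deviation from the mean of the 12 libraries was -0.70 in OE-MMP28 replicate 2 and 0.0695 in OE-MMP28 replicate 3, against 0.318 to 0.587 with anti-IL-8.

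When each library was given an offset fitted to GC content and transcript length, an alternative chosen after the data had been seen, the called members with anti-IL-8 against control went from 15 to 10 (14.6% of all genes were called with the offsets), of which 7 were in both sets. These 7 were NFKB2, NFKBIZ, BIRC2, MAP3K8, IER3, PTGS2 and PLAUR. The calls of RIPK2, NFKBIE, NFKBIB, RELB, TRAF2, TNIP2, BIRC3 and TNFAIP6 were not made with the offsets, and TNFSF15, CD83 and TNFAIP2 were called in addition. With anti-VEGFA against control, 9 members were called (11.6% of all genes), among them 6 of the 7 called without offsets, all but TNF. The 3 others were CD83 (0.34, adjusted p 0.0427) and CFLAR, which were higher, and IKBKE, which was lower. CFLAR was also called in anti-VEGFA against OE-MMP28 (0.274% of all genes), and NFKBIA and MAP3K8 beside PTGS2 in anti-VEGFA against anti-IL-8 (1.18%). In OE-MMP28 against control, 3 members passed with the offsets and were higher: NFKB2 (0.59, adjusted p 0.00495), TNFSF15 (0.47, adjusted p 0.00654) and TNFAIP3 (0.31, adjusted p 0.0448), where the offsets called 6.35% of all genes. In anti-IL-8 against OE-MMP28, the members past the unadjusted threshold went from 18 to 5, while the share of all genes went from 29.3% to 9.64%. Of the 5 members, 4 were among the 18. These 4 were PTGS2, TNFAIP6, NFKBIZ and BIRC2, all lower. The remaining one was BCL3, which changed sign, from 0.24 (unadjusted p 0.126) to -0.29 (unadjusted p 0.0139).

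Among the subunits, NFKB2 stood out. NFKB2 (chr10:102394110-102402529, GRCh38) stood at 102, 99.3 and 88.6 CPM in control, 134, 99.3 and 183 in OE-MMP28, 176, 167 and 175 under anti-IL-8 and 155, 193 and 157 under anti-VEGFA. All anti-IL-8 and anti-VEGFA libraries lay above all control libraries, and OE-MMP28 replicate 2 alone of the OE-MMP28 libraries overlapped with control. NFKB2 rose with anti-IL-8 (log2 fold change 0.84, SE 0.170, adjusted p 0.00356) and with anti-VEGFA (log2 fold change 0.80, SE 0.170, adjusted p 0.00629) relative to control. In OE-MMP28 alone it reached a log2 fold change of 0.52 (95% interval 0.16 to 0.88), which missed the adjusted threshold. RELB, the partner of p52, stood at 43.8, 47.9 and 42.0 CPM in control, 44.0, 36.1 and 49.4 in OE-MMP28, 59.1, 57.1 and 68.1 under anti-IL-8 and 51.0, 54.1 and 58.4 under anti-VEGFA. RELB rose with anti-IL-8 against control (log2 fold change 0.46, SE 0.133, adjusted p 0.0228), with libraries that did not overlap with those of control or OE-MMP28, but with the GC and length offsets the value was 0.06 (adjusted p 0.741). NFKB1, RELA and REL were not called in any comparison, but with anti-IL-8 against control REL was lower and called in 9 of 22 alternative analyses and RELA was higher and called in 4. REL, whose exons share 43.3% of their bases with another gene, ranged from 5.79 CPM in anti-IL-8 replicate 1 to 22.7 in anti-VEGFA replicate 1.

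The IkB proteins moved unequally. NFKBIA, which encodes IkB-alpha (chr14:35401511-35404749), stood at 232, 197 and 213 CPM in control, 271, 214 and 321 in OE-MMP28, 278, 268 and 265 under anti-IL-8 and 316, 358 and 355 under anti-VEGFA. All anti-VEGFA libraries exceeded all control and all anti-IL-8 libraries, and NFKBIA rose with anti-VEGFA against control (log2 fold change 0.68, SE 0.139, adjusted p 0.0048). With anti-IL-8 its log2 fold change against control was 0.34 (adjusted p 0.0889), and in OE-MMP28 alone it was 0.33 (adjusted p 0.273). NFKBIB, which encodes IkB-beta, averaged 41.3 ± 3.17 CPM (SD over 3 libraries) in control and 47.8 ± 14.8 in OE-MMP28, against 64.3 ± 3.14 under anti-IL-8 and 66.0 ± 9.17 under anti-VEGFA. It rose against control with anti-IL-8 (log2 fold change 0.64, SE 0.177, adjusted p 0.0193) and with anti-VEGFA (log2 fold change 0.68, SE 0.177, adjusted p 0.0214). NFKBIE, which encodes IkB-epsilon, rose with anti-IL-8 against control (log2 fold change 0.52, SE 0.139, adjusted p 0.0154), from 107 ± 7.97 to 154 ± 6.60 CPM. It averaged 143 ± 9.86 with anti-VEGFA (adjusted p 0.064 against control). With the offsets, the anti-IL-8 values against control were 0.29 for NFKBIB (adjusted p 0.0781) and 0.24 for NFKBIE (adjusted p 0.0769).

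NFKBIZ, an atypical nuclear IkB protein that directs secondary response genes, went the other way from the classical inhibitors. It averaged 125 ± 4.88 CPM in control and 109 ± 24.7 in OE-MMP28, and it fell with anti-IL-8 against control, to 75.9 ± 7.82 (log2 fold change -0.72, SE 0.164, adjusted p 0.00686). With anti-VEGFA it averaged 90.1 ± 16.4 (log2 fold change against control -0.48, adjusted p 0.0682). BCL3, a nuclear IkB protein that binds p50 and p52 dimers, stood at 37.7, 34.4 and 32.0 CPM in control, 35.8, 26.7 and 39.0 in OE-MMP28, 36.4, 41.8 and 41.9 under anti-IL-8 and 38.6, 50.7 and 47.8 under anti-VEGFA. Its mean was highest with anti-VEGFA, but it was not called in any comparison. Of the feedback inhibitors, TNFAIP3 was found at 338, 355 and 339.8 CPM in control, 435, 439 and 369.6 in OE-MMP28, 347, 384 and 368 under anti-IL-8 and 445, 339 and 395 under anti-VEGFA. All OE-MMP28 libraries of TNFAIP3 lay above those of control, by a log2 fold change of 0.27 (unadjusted p 0.0498, adjusted p 0.343). TNIP2, an A20-binding inhibitor, rose with anti-IL-8 against control (log2 fold change 0.57, SE 0.168, adjusted p 0.0255), from 60.5 ± 3.25 to 89.6 ± 3.52 CPM. That call was not made with the offsets (0.23, adjusted p 0.109), and the related TNIP1 was not called in any comparison.

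**Figure D3:**
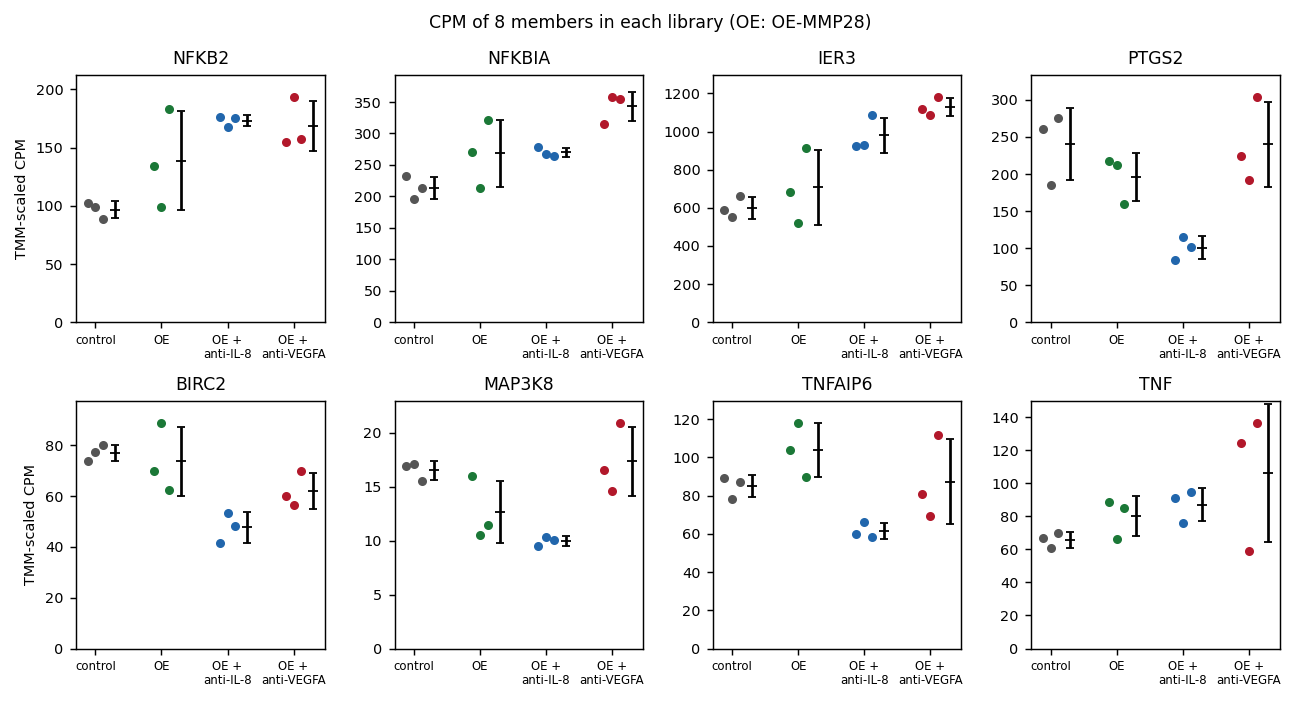
TMM-scaled CPM of 8 members in each library (points) with the group mean ± SD (bars), 3 libraries a group. PTGS2, BIRC2, MAP3K8 and TNFAIP6 are lowest with anti-IL-8, and NFKB2 and IER3 are higher in both antibody groups than in control.

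Of the 10 signal transducers, 4 fell (10.9% of all genes did) and 1 rose (9.77% of all genes did) with anti-IL-8 against control. BIRC2, the ubiquitin ligase cIAP1 (chr11:102347211-102378670), stood at 73.9, 77.3 and 80.2 CPM in control, 69.9, 88.6 and 62.4 in OE-MMP28, 41.4, 53.3 and 48.2 under anti-IL-8 and 59.9, 56.3 and 69.8 under anti-VEGFA. Its neighbor BIRC3, cIAP2 (chr11:102317450-102339403), stood at 13.4, 17.4 and 18.7 CPM in control, 17.6, 20.1 and 13.7 in OE-MMP28, 8.56, 13.2 and 10.7 under anti-IL-8 and 15.9, 15.5 and 17.1 under anti-VEGFA. Both were lower in all anti-IL-8 libraries than in any control or OE-MMP28 library. Against control with anti-IL-8, BIRC2 fell (log2 fold change -0.69, SE 0.144, adjusted p 0.00402), as did BIRC3 (log2 fold change -0.61, SE 0.183, adjusted p 0.0274), whereas with anti-VEGFA the values were -0.31 (adjusted p 0.166) and -0.03 (adjusted p 0.935). With the GC and length offsets BIRC2 remained called at -0.32 (adjusted p 0.0243), and BIRC3 did not, at -0.18 (adjusted p 0.345).

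MAP3K8, the kinase TPL2 that links NFKB1 p105 to MAPK signaling (chr10:30433937-30461833), stood at 16.9, 17.1 and 15.5 CPM in control, 15.9, 10.5 and 11.4 in OE-MMP28, 9.46, 10.3 and 10.1 under anti-IL-8 and 16.5, 14.6 and 20.9 under anti-VEGFA. Replicates 2 and 3 of OE-MMP28 and all anti-IL-8 libraries lay below all control libraries, while the anti-VEGFA libraries overlapped with control. MAP3K8 fell with anti-IL-8 against control (log2 fold change -0.73, SE 0.174, adjusted p 0.00882). RIPK2, the kinase of NOD receptors, stood at 103, 98.7 and 95.9 CPM in control, 87.5, 99.2 and 88.6 in OE-MMP28, 64.4, 75.9 and 64.8 under anti-IL-8 and 71.2, 92.3 and 77.7 under anti-VEGFA. RIPK2 fell with anti-IL-8 against control (log2 fold change -0.54, SE 0.125, adjusted p 0.0081), with no overlap with control or OE-MMP28, and with the offsets it stood at -0.29 (adjusted p 0.058). TRAF2, an adaptor of TNF receptors, stood at 27.8, 30.7 and 28.4 CPM in control, 30.5, 21.2 and 36.9 in OE-MMP28, 42.7, 41 and 44.4 under anti-IL-8 and 42.1, 51.0 and 40.3 under anti-VEGFA. TRAF2 rose against control with anti-IL-8 (log2 fold change 0.56, SE 0.164, adjusted p 0.0246) and with anti-VEGFA (log2 fold change 0.62, SE 0.164, adjusted p 0.0225), and each antibody group lay above all OE-MMP28 libraries as well. With the offsets the call held for anti-VEGFA (0.36, adjusted p 0.0278) and not for anti-IL-8 (0.25, adjusted p 0.112). IKBKE, an IKK-related kinase, stood at 31.9, 35.3 and 28.4 CPM in control, 24.5, 21.4 and 33.8 in OE-MMP28, 31.1, 28.6 and 28 under anti-IL-8 and 28.5, 26.9 and 24.5 under anti-VEGFA, with groups that overlapped throughout. With the offsets IKBKE was lower with anti-VEGFA against control (-0.42, adjusted p 0.0258), where without them the value was -0.26 (adjusted p 0.301). TRAF1, TRAF3, BCL10 and IRAK2 were not called in any comparison.

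The ligand genes TNF (chr6:31575567-31578336), LTA (chr6:31572054-31574324) and LTB (chr6:31580525-31582522) are neighbors on chromosome 6. LTA, which encodes lymphotoxin alpha, had 3, 7 and 0 counts in the control libraries, 7, 7 and 8 in OE-MMP28, 4, 13 and 11 under anti-IL-8, and 20, 26 and 24 under anti-VEGFA. The anti-VEGFA libraries exceeded all others, and LTA rose against control (log2 fold change 2.77, SE 0.599, adjusted p 0.00707), a fold that rests on few reads. LTA passed the filter on low counts only through its anti-VEGFA libraries, so this call describes these libraries and is no support for an effect. The same limit holds against OE-MMP28, where its log2 fold change was 1.66 (95% interval 0.54 to 2.77, adjusted p 0.13). TNF stood at 67.0, 60.6 and 69.8 CPM in control, 88.9, 66.5 and 84.8 in OE-MMP28, 90.9, 75.7 and 94.8 under anti-IL-8 and 124, 58.7 and 136 under anti-VEGFA. TNF rose with anti-VEGFA against control (log2 fold change 0.70, SE 0.218, adjusted p 0.0481), but replicate 2, the library with the highest mitochondrial share, lay below all control libraries, and without that library the log2 fold change was 1.00. The call held in 7 of 22 alternative analyses. TNFSF15, the cytokine TL1A, stood at 199.5, 183 and 239 CPM in control, 273, 331 and 237 in OE-MMP28, 213, 224 and 206 under anti-IL-8 and 235, 188 and 223 under anti-VEGFA. Its OE-MMP28 mean was the highest, with a log2 fold change against control of 0.44 (adjusted p 0.128), and the libraries of both antibody groups lay below all OE-MMP28 libraries (log2 fold change -0.39 for anti-IL-8, adjusted p 0.094, log2 fold change -0.38 for anti-VEGFA, adjusted p 0.178). With the offsets the anti-IL-8 value for TNFSF15 against OE-MMP28 was -0.08 (unadjusted p 0.432), and that against control went from 0.05 to 0.39 (adjusted p 0.013). LTB had 4 to 17 counts and was not called.

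Of the survival and stress targets, IER3 was the only one called in the main edgeR fit. DESeq2 also called SOD2 and TNFAIP8 in anti-IL-8 against OE-MMP28 (23% of all genes given an adjusted p) and CFLAR in anti-IL-8 against control (27.1%). IER3 (chr6:30743199-30744554) stood at 587, 551 and 662 CPM in control, 684, 522 and 915 in OE-MMP28, 926, 929 and 1087 under anti-IL-8 and 1119, 1086 and 1181 under anti-VEGFA. Both antibody groups lay above every control and OE-MMP28 library. IER3 rose against control with anti-IL-8 (log2 fold change 0.71, SE 0.167, adjusted p 0.0084) and with anti-VEGFA (log2 fold change 0.91, SE 0.167, adjusted p 0.00208), and the difference of anti-VEGFA from OE-MMP28, 0.67, had an adjusted p of 0.0747. With the offsets the values against control were 0.41 (adjusted p 0.0247) and 0.69 (adjusted p 0.00079). Against OE-MMP28 the offset values were 0.175 with anti-IL-8 (adjusted p 0.65) and 0.46 with anti-VEGFA (adjusted p 0.117). Of its exonic bases 26.5% are shared with the antisense gene IER3-AS1, and whether the counting used strand is not given in the sources used here. CFLAR, the caspase-8 regulator c-FLIP, stood at 269.8, 272 and 276 CPM in control, 251, 236 and 197 in OE-MMP28, 189, 222 and 225 under anti-IL-8 and 342, 255 and 312 under anti-VEGFA. Its libraries with anti-VEGFA were all above those of OE-MMP28 (0.41, adjusted p 0.14, and 0.47, adjusted p 0.0403, with the offsets), which in turn were all below those of control (-0.26, adjusted p 0.406), and 12.0% of its exonic bases are shared with other genes. BCL2A1 stood at 212, 209.6 and 204 CPM in control, 215, 246 and 294 in OE-MMP28, 248, 230.5 and 184 under anti-IL-8 and 157, 237 and 186 under anti-VEGFA. TNFAIP8, a regulator of cell death, stood at 125, 139 and 135 CPM in control, 142, 172 and 129.9 in OE-MMP28, 93.2, 126 and 91.7 under anti-IL-8 and 85.7, 130.4 and 109 under anti-VEGFA. The OE-MMP28 libraries of BCL2A1 lay above all control libraries and those of TNFAIP8 above all anti-IL-8 libraries, but neither gene nor SOD2 was called in the main edgeR fit.

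PTGS2, which encodes the prostaglandin synthase COX-2, had the largest fold change of the inflammatory effector targets. PTGS2 (chr1:186671791-186680427) stood at 260.2, 185 and 275 CPM in control, 217, 213 and 159 in OE-MMP28, 84.6, 116 and 101 under anti-IL-8 and 225, 192 and 304 under anti-VEGFA. All anti-IL-8 libraries were below every library of the other 3 groups. PTGS2 fell with anti-IL-8 against control (log2 fold change -1.26, SE 0.189, adjusted p 0.00028), a fall that also passed with the GC and length offsets at -0.86 (adjusted p 0.00181). Against OE-MMP28, where no gene passed, it had the smallest p of the members with anti-IL-8 (log2 fold change -0.96, SE 0.188, adjusted p 0.0627). Between the antibodies PTGS2 was higher with anti-VEGFA (log2 fold change 1.26, SE 0.189, adjusted p 0.00651), a call lost without anti-IL-8 replicate 1 or 3 or anti-VEGFA replicate 3, and against control the anti-VEGFA group gave a log2 fold change of 0.00 (95% interval -0.39 to 0.39). MAP3K8 came next in that comparison (0.80, adjusted p 0.0551).

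TNFAIP6, the hyaluronan-binding protein TSG-6, stood at 89.2, 78.2 and 87.4 CPM in control, 104, 118 and 89.8 in OE-MMP28, 59.8, 66.0 and 58.3 under anti-IL-8 and 81.0, 69.3 and 112 under anti-VEGFA. The anti-IL-8 libraries were below all control and OE-MMP28 libraries, while the OE-MMP28 libraries lay above control (0.29, adjusted p 0.419). TNFAIP6 fell with anti-IL-8 against control (log2 fold change -0.47, SE 0.157, adjusted p 0.0421), a call that held in 11 of 22 alternative analyses. PLAUR (chr19:43646095-43670547) stood at 892, 905 and 1071 CPM in control, 1127, 1149 and 1493 in OE-MMP28, 1538, 1290.2 and 1561 under anti-IL-8 and 1179.6, 1049.8 and 1217 under anti-VEGFA. Every OE-MMP28 and anti-IL-8 library exceeded every control library, and PLAUR rose with anti-IL-8 against control (log2 fold change 0.61, SE 0.145, adjusted p 0.00871), while in OE-MMP28 alone it reached 0.39 (adjusted p 0.189). With the offsets PLAUR was at 0.415 in OE-MMP28 against control (adjusted p 0.0518) and -0.01 in anti-IL-8 against OE-MMP28 (unadjusted p 0.933). PLAU, the protease that PLAUR binds, stood at 21.2, 18.5 and 17.9 CPM in control, 17.4, 10.8 and 15.0 in OE-MMP28, 16.7, 13.9 and 16.5 under anti-IL-8 and 15.6, 13.1 and 20.3 under anti-VEGFA. Its OE-MMP28 libraries lay below all control libraries (-0.42, adjusted p 0.304), and 31.1% of its exonic bases are shared with C10orf55. CD83, a surface marker of mature antigen-presenting cells, stood at 160.1, 163 and 191 CPM in control, 205, 219 and 205 in OE-MMP28, 206, 189.7 and 219 under anti-IL-8 and 212, 175 and 226 under anti-VEGFA. CD83 was higher in all OE-MMP28 libraries than in control (0.29, adjusted p 0.288), and ICAM1, GCH1 and TNFAIP2 were not called in any comparison, although TNFAIP2 was with the offsets with anti-IL-8 against control (-0.32, adjusted p 0.0385).

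**Figure D4:**
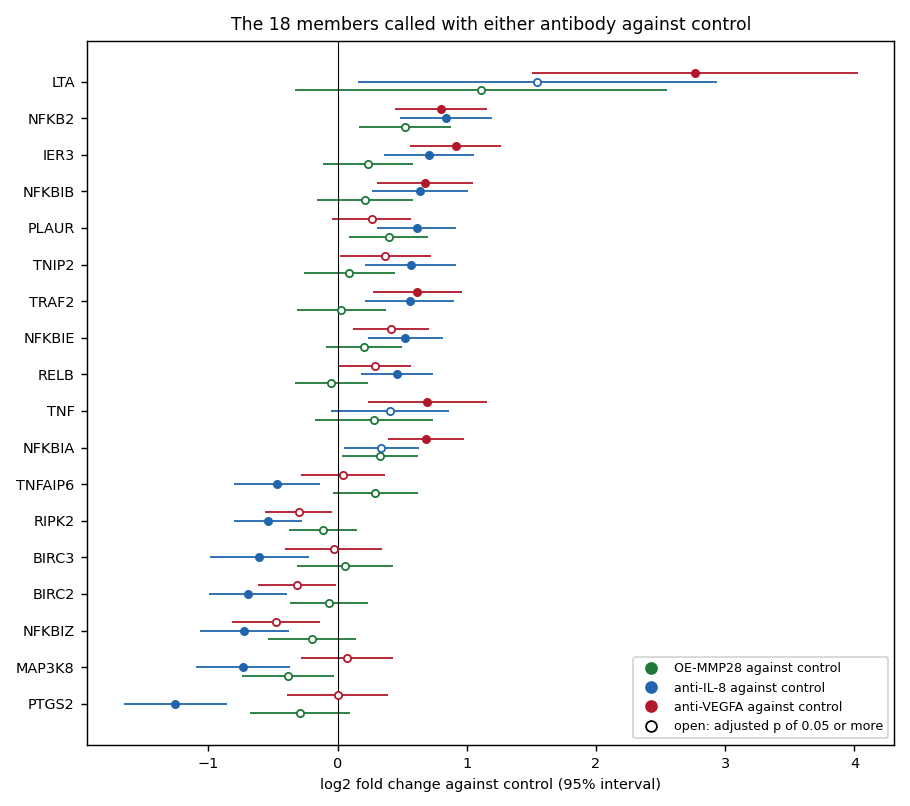
Log2 fold change against control with 95% intervals for the 18 members called with either antibody. Filled points passed an adjusted p of 0.05. The anti-IL-8 points of PTGS2, MAP3K8, BIRC3 and TNFAIP6 lie below zero while the anti-VEGFA points of the same genes lie near it.

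A further 33 genes of the pathway, receptors, adaptors, kinases and ubiquitin enzymes outside the 41, were counted beside them, of which 32 were tested. In OE-MMP28 against control 2 fell, the adaptor of Toll-like and IL-1 receptors MYD88 (-1.08, adjusted p 1.2e-05) and the receptor RANK, TNFRSF11A (-0.95, adjusted p 0.0277). Of all genes 2.64% fell there. With anti-IL-8 against control 5 rose and 10 fell (46.9% of the 32 in all, against 9.77% of all genes that rose and 10.9% that fell). In that comparison the median GC content was 59.3% for all genes called higher and 42.1% for those called lower. The GC and length offsets were read for the 41 members only, so the part of GC content in the calls of the 32 was not tested. Those with the smallest p that fell were the deubiquitinase CYLD (-0.81), MYD88 (-0.99), the kinase TAK1, MAP3K7 (-0.53), its binding partner TAB2 (-0.65), the IKK subunit CHUK (-0.67) and RIPK1 (-0.52), and those that rose were CARD9 (0.74) and IRAK1 (0.58), all with adjusted p between 3.4e-05 and 0.0154. With anti-VEGFA against control 2 rose (5.60% of all genes did), CARD9 (0.55, adjusted p 0.0225) and the IkB protein NFKBID (0.74, adjusted p 0.00534). There 3 fell (5.37% of all genes did), MYD88 (-1.15, adjusted p 6.1e-06), CYLD (-0.63, adjusted p 0.00311) and RIPK1 (-0.41, adjusted p 0.0466). In the comparisons of the antibodies with OE-MMP28 and with each other, 0 of the 32 passed the adjusted threshold in edgeR, while 19, 11 and 5 passed the unadjusted one with anti-IL-8, with anti-VEGFA and between the antibodies (59.4%, 34.4% and 15.6%, against 29.3%, 18.8% and 15.0% of all genes).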

How the data were processed

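Counts per gene were deposited by the authors as whole numbers for 58735 genes. The labels name HISAT2 2.0.5 and featureCounts 1.5.0-p3, and the strand setting and genome build are not given in the sources used here, though all identifiers are in GENCODE 29 on GRCh38, with the same start and end for 58724 of them. FPKM per gene, also computed by the authors, served for levels and alternatives. Columns of the authors' own comparisons (fold changes and p-values) were not used. In R 4.3.3 with edgeR 4.0.16, genes were filtered by filterByExpr over the 4 groups, scaled by TMM and fitted with 1 coefficient per group in a quasi-likelihood model. CPM are TMM-scaled, p-values were adjusted by Benjamini-Hochberg over the 16046 genes of a comparison, and log2 fold changes carry edgeR's default prior count, with 95% intervals from the same fit. The procedure was tested on simulated data first. SOD2 stood on 2 rows, of which the one with more counts was used.

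The members and lists were chosen with earlier results of these data known. Members past an adjusted p of 0.05 are named. Where none passed, the 6 with the smallest p whose libraries did not overlap are named. Values of every library are given for the 12 members with the smallest p in OE-MMP28 against control and the 6 in each antibody comparison with OE-MMP28. Pathway genes outside the 41 are named up to 8 a comparison. Other members are named as belonging to the set.

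Alternatives were DESeq2 1.42.0, voom of limma 3.58.1, scaling by library totals, 2 other filters (none, and 10 counts or more in each library), a fit of only the groups compared, a replicate block, log2(FPKM + 1) and log2(FPKM + 0.1) in limma, and leaving out each library. A loess fit per library gave offsets for GC and length, added after the data had been seen. The groups shared replicate numbers, which were not taken to pair the libraries, as the labels do not say whether they do. Promoters were read from RefSeq. Figures were drawn in Python 3.11.15 with matplotlib 3.10.9.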

Additional observations from a re-analysis of the deposited data

Results flagged for a closer look

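PTGS2 differed between the antibody groups themselves, with a log2 fold change of 1.26 (SE 0.189, adjusted p 0.00651) in anti-VEGFA against anti-IL-8, while the 2 groups had the same OE-MMP28 coculture. It was higher in 3 of 3 anti-VEGFA libraries than in any anti-IL-8 library. The value was 1.03 (adjusted p 0.0063) with offsets for GC content and length, and the call was lost without anti-IL-8 replicate 1 or 3 or anti-VEGFA replicate 3, with a highest adjusted p of 0.0933.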

How the results depend on the processing

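The recomputed values cover 41 results, each a member in a comparison where it passed the threshold or, where none passed, was among the 6 named. Of 900 such values, 784 kept their direction and their side of the threshold, 76 lost a call and 39 gained one. The 1 that reversed was RELB in anti-VEGFA against OE-MMP28, at -0.11 with the GC and length offsets. Members outside these results changed sign more often. PTGS2 with anti-VEGFA against control, and NFKB1 and GCH1 with anti-IL-8 against control, did so in 11 of 22 alternatives. With anti-IL-8 against control, PTGS2, NFKB2, BIRC2, NFKBIZ, IER3 and PLAUR were called in all 22 alternatives, as were IER3, NFKBIA and NFKB2 with anti-VEGFA. LTA was called with anti-VEGFA in the 21 that tested it, but it passed the filter on low counts only through that group. In OE-MMP28 against control, 1 member was called with no filter, 3 with the offsets and 0 to 2 with a library left out (2 without OE-MMP28 replicate 2, 1 without OE-MMP28 replicate 3). Of all genes, 2.05% were called with no filter, 6.35% with the offsets, 3.12% without OE-MMP28 replicate 2 and 2.6% without OE-MMP28 replicate 3. In anti-IL-8 against OE-MMP28, 13 members were called by DESeq2 (4 higher, 9 lower), 11 with no filter, 8 with the replicate block (2 higher, 6 lower) and 0 to 17 with a library left out (17 without OE-MMP28 replicate 3, 9 without anti-VEGFA replicate 2). Of all genes, DESeq2 called 23% of those it gave an adjusted p. No filter gave 4.18%, the replicate block 4.95%, and leaving out those libraries 25% and 7.08%. At the unadjusted threshold the 18 members became 5 with the offsets and 10 (without OE-MMP28 replicate 2) to 24. The share of all genes, 29.3%, became 9.64% with the offsets and 14.3% without OE-MMP28 replicate 2. In anti-VEGFA against OE-MMP28, 2 members were called by DESeq2 (2.96% of all genes), 2 with no filter (1.16%), 1 with log2(FPKM + 1) (0.38%) and 1 with the offsets (0.274%). The 1 with log2(FPKM + 1) was LTA. With a library left out 0 to 7 were called (7 without OE-MMP28 replicate 3, with 8.48% of all genes, and 1 without anti-VEGFA replicate 2, with 0.51%). At the unadjusted threshold the 13 members became 7 in a fit of the 2 groups and 5 (without OE-MMP28 replicate 2) to 19. The share of all genes, 18.8%, became 11% in the fit of the 2 groups and 11% without OE-MMP28 replicate 2. With anti-IL-8 against control the 15 members became 25 in a fit of the 2 groups, which called 39.8% of all genes. With a library left out they became 7 to 19 (7 without anti-IL-8 replicate 1, 8 without its replicate 3 or control replicate 2 or 3). The 4 fits named called 7.94%, 8.23%, 8.13% and 8.48% of all genes. With anti-VEGFA against control the 7 members became 4 without any 1 control library (4.02% to 5.8% of all genes) and at most 11, without OE-MMP28 replicate 2 (15.7%). Between the antibodies 3 members were called by DESeq2 (1.67% of all genes), with no filter (0.804%) and with the offsets (1.18%), and 2 with at least 10 counts in every library (0.428%). With a library left out 0 to 2 were called (0 without anti-IL-8 replicate 1 or 3 or anti-VEGFA replicate 3, 2 without any 1 OE-MMP28 library or anti-VEGFA replicate 2). Of all genes, the fits with 0 called 0.0181% to 0.0606%, and those with 2 called 0.188% to 0.68%. The causes were not tested. Libraries of the same number deviated together with correlations of -0.16 to 0.237, and those of different numbers with -0.323 to 0.336. The numbers were therefore not taken to pair the samples, although with 3 libraries a group these correlations cannot exclude a pairing. Outside anti-IL-8 against OE-MMP28, the replicate block moved no count of calls by over 1.5 times. LTA and LTB, with at most 26 and 17 counts, are limited by depth.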
